A study of Mus musculus with 12 samples.

Results

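The genes described here are 10 of the 54184 genes in the deposited tables, the keratins Krt8, Krt18 and Krt19, the adhesion molecule Epcam, and the cadherins Cdh1, Cdh3, Cdh4, Cdh6, Cdh11 and Cdh16. They were chosen by gene name with their levels in these libraries already known, so those levels are given as a description. Levels are in TPM, a transcript abundance scaled for transcript length and for the library total, which carries no read count, so the depth behind a value is unknown.

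Poly-A RNA was sequenced in bulk from nephron progenitor cells (NPCs) of E13.5 mouse kidneys, in 12 libraries, 3 in each of 4 groups, after 24 h. In the YN1 group the cells received 20 µM YN1, which inhibits PFKFB3, an enzyme that drives glycolysis, and in the CHIR group 3.5 µM CHIR99021, a GSK3 inhibitor that activates WNT signaling. Both drugs were given in a differentiation medium of DMEM with KO serum replacement and Fgf2. The DMEM control had no drug, and the sources used here do not describe its supplements, so it may differ from the drug groups in more than the drug. The NPEM control stayed in the expansion medium that keeps NPCs as progenitors. All cells were labelled wild type and came from CD1 females mated with Six2GFP+ or GFP- males, and all had been isolated with magnetic beads and expanded in NPEM for 2 to 3 passages, so each group is a cultured, selected population. Where 3 values of a group are given below, they are replicates 1, 2 and 3. Replicate 1 is the library whose label has no number. Libraries with the same number deviated together from their group means, and the replicate number was therefore fitted as a block beside the fit without it.

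Libraries summed to 969477 to 973162 TPM, and 13754 to 14569 genes reached 1 TPM in a library. All 10 nephron progenitor markers examined reached 1 TPM in at least 3 libraries, with Six2, the transcription factor that defines the progenitors, at 27.2 to 175 TPM. Stroma markers summed to 3020 to 3878 TPM in replicate 1 libraries, 833 to 1215 TPM in replicate 2 libraries and 934 to 3040 TPM in replicate 3 libraries. In bulk RNA, fewer cells of a type and less RNA per cell cannot be told apart.

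Keratins form the intermediate filaments of epithelial cells as pairs of a type II and a type I chain, and in simple epithelia such as kidney tubules the type II chain Krt8 pairs with the type I chains Krt18 and Krt19. Cadherins are calcium-dependent adhesion proteins that hold like cells together and are tied to actin through catenins. When NPCs form a nephron they pass from mesenchyme to epithelium, and the set of cadherins on their surface changes as they do so.

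For 5 of the 10 genes the libraries differed most by replicate number and not by treatment. In all 4 groups, Krt8, Krt18, Epcam, Cdh1 and Cdh16 were high in replicate 3 and low in replicates 1 and 2. For these 5 of the 10 genes, the lowest of the 4 replicate 3 libraries lay more than 5-fold above the highest of the other 8. Of the 15680 genes that reached 1 TPM in 3 or more of the 12 libraries, 40 did so, or 0.255%. Cdh1 reached 1 TPM in 0 of the 8 replicate 1 and 2 libraries and Krt8 and Cdh16 in 2 of them each, so these 3 genes passed that minimum only with their replicate 3 libraries, and nothing is read from the 5 against this share. The same count was 0 of the 10 genes for replicate 1 libraries, where 22 genes stood 5-fold above the rest, and 0 of the 10 for replicate 2 libraries, where 6 genes did. The 5 genes together summed to 195, 172, 185 and 186 TPM in replicate 3 of YN1, CHIR, DMEM and NPEM, against 1.94 to 4.20 TPM in the 4 replicate 1 libraries and 6.91 to 9.17 TPM in the 4 replicate 2 libraries. The cause of the difference was not tested.

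**Figure D1:**
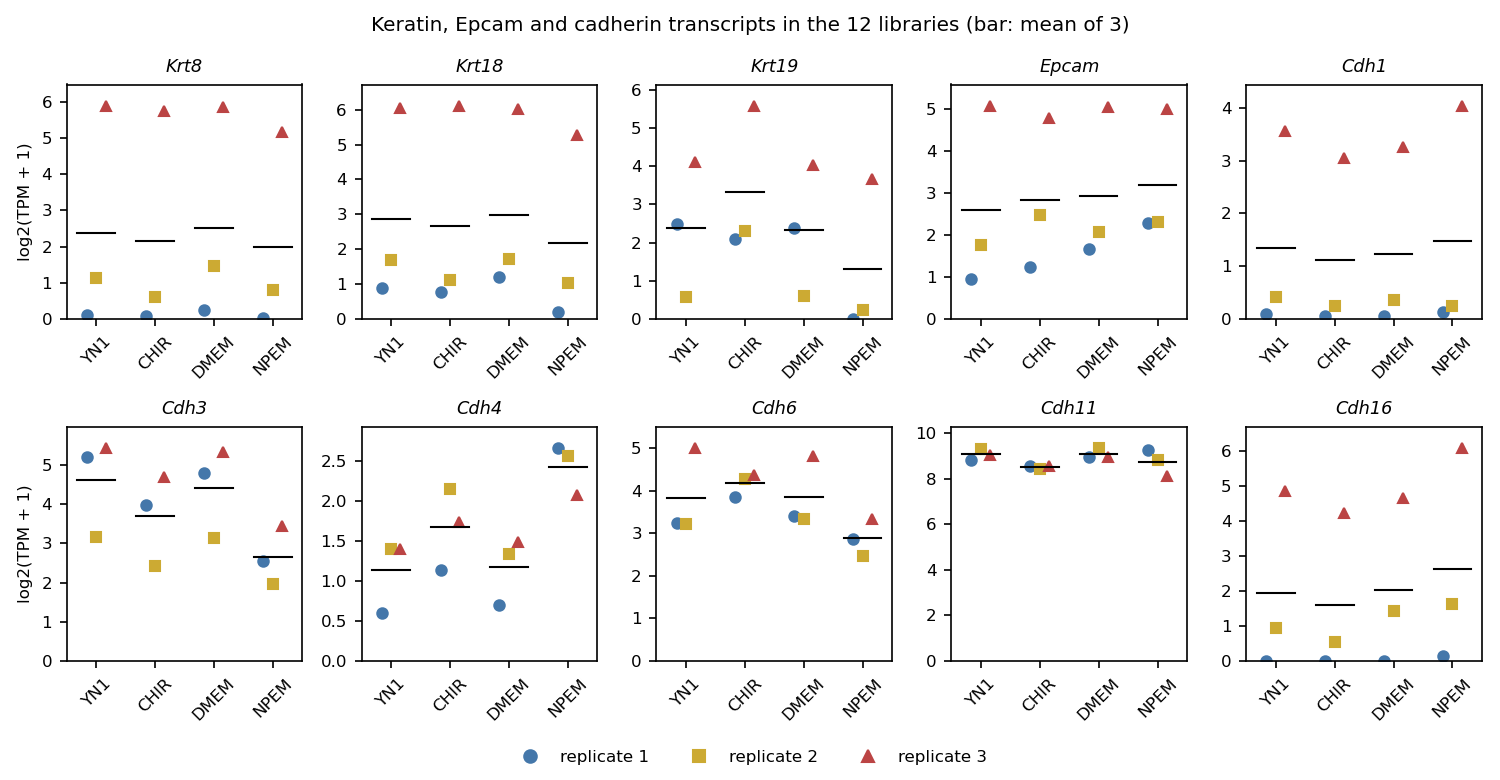
Levels of the 10 genes as log2(TPM + 1) in every library, by group on the horizontal axis, with circles for replicate 1, squares for replicate 2, triangles for replicate 3 and a bar at the mean of 3. Replicate 3 stands above the other libraries of every group for Krt8, Krt18, Krt19, Epcam, Cdh1 and Cdh16, while Cdh11 lies between 280 and 659 TPM in all 12 libraries.

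The gap between the lowest replicate 3 library and the highest of the other 8 was 21.7-fold for Cdh1, 19.8-fold for Krt8, 16.6-fold for Krt18, 8.40-fold for Cdh16 and 5.76-fold for Epcam. Of the genes under the limit of 5-fold, Krt19 came nearest to it, at 2.57-fold. At a limit of 10-fold, 3 of the 10 genes remained, Krt8, Krt18 and Cdh1, with 19 genes in all (0.121%), and at 2-fold Krt19 joined for 6 of the 10, with 109 genes in all (0.695%). The other 4 genes, Cdh3, Cdh4, Cdh6 and Cdh11, had ratios of 0.277 to 0.493, so their replicate 3 libraries overlapped the rest.

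**Figure D2:**
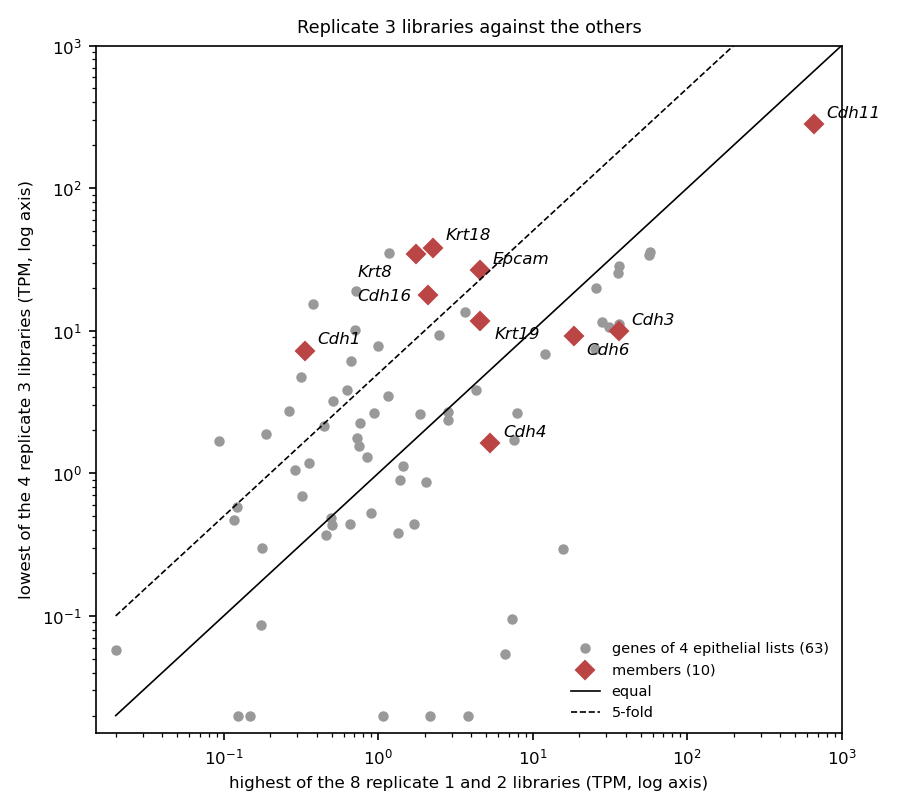
Lowest TPM of the 4 replicate 3 libraries against the highest TPM of the 8 replicate 1 and 2 libraries, both on log axes, for the 10 genes (red) and genes of 4 other epithelial lists (grey), with values of 0 drawn at the lower edge. Cdh1, Krt8, Krt18, Cdh16 and Epcam lie above the dashed line of 5-fold, and Krt19 lies between the dashed line and the line of equal values.

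Krt8 and Krt18 are neighbours on mouse chromosome 15, Krt8 at 101996711 to 102004342 and Krt18 at 102028216 to 102032026 (GRCm38.p6), with 23873 bases between them, and Epcam lies on chromosome 17 at 87635979 to 87651127. Promoter sequences were matched in RefSeq (GRCm38.p6) for Krt8, Krt18, Epcam and Cdh6, 4 of the 10 genes. The first 3 follow the replicate 3 pattern and Cdh6 does not, and the 250 bases before each start are shown for that reason. The windows of Krt8, Krt18 and Epcam adjoin the ends of the gene positions given, whereas the Cdh6 window lies inside its gene (13028699 to 13176407), at another transcript start, so it is not a like-for-like contrast. Capitals mark the E-box CAGGTG and its reverse complement CACCTG, a letter pattern that the SNAI and ZEB repressors are known to bind, searched on both strands.
Krt8, chr15:102004343-102004592, minus strand: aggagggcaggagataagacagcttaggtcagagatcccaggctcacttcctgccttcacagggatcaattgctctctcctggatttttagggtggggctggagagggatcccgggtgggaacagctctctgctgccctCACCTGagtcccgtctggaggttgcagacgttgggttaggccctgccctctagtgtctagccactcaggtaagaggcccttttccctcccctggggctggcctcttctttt
Krt18, chr15:102027966-102028215, plus strand: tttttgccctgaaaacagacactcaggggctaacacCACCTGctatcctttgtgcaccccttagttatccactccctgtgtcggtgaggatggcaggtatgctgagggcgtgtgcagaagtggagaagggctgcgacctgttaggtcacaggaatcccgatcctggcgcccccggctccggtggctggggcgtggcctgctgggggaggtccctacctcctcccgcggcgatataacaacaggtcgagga
Epcam, chr17:87635729-87635978, plus strand: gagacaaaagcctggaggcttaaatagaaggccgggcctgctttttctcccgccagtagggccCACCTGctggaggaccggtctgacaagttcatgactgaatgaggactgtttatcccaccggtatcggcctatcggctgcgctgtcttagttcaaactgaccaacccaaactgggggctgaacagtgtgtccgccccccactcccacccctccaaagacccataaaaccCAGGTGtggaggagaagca
Cdh6, chr15:13173676-13173925, minus strand: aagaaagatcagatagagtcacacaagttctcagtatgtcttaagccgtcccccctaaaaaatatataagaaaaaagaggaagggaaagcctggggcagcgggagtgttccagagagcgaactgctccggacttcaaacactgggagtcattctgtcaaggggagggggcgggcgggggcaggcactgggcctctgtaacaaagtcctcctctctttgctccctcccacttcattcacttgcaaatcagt
The box began 111 bases before the start in Krt8, 214 bases before it in Krt18, and 187 and 19 bases before it in Epcam, and these letters were not in the Cdh6 window. Of all 32851 windows of 250 bases, 5657 held a box, or 17.2%. A match is a description of the letters.

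The genes of 4 such repressors had TPM above 10 in every library. Snai2, a repressor of epithelial genes, had 71.6 to 135 TPM in replicate 3 libraries, 93.5 to 197 TPM in replicate 1 libraries and 93.0 to 119 TPM in replicate 2 libraries. Zeb1, a repressor of the ZEB family, had 28.1 to 41.7 TPM in replicate 3 libraries, 29.8 to 47.6 TPM in replicate 1 libraries and 40.5 to 61.7 TPM in replicate 2 libraries. The ranges of Snai2 and Zeb1 overlapped between replicate numbers. Snai1 had 29.2 to 58.9 TPM in replicate 3 libraries, 22.0 to 59.2 TPM in replicate 1 libraries and 11.4 to 22.1 TPM in replicate 2 libraries, the last nearly apart from the others. Zeb2 had 25.2 to 45.2 TPM in replicate 3 libraries, 52.9 to 95.0 TPM in replicate 1 libraries and 28.0 to 32.3 TPM in replicate 2 libraries, so replicate 1 stood above the rest. None of the 4 separated replicate 3 from both other numbers.

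Krt8, the type II keratin, had 0.0862, 1.21 and 58.3 TPM with YN1, 0.0676, 0.520 and 52.8 TPM with CHIR, 0.188, 1.75 and 57.3 TPM in DMEM and 0.0243, 0.739 and 34.7 TPM in NPEM. Only the replicate 3 library of each group was above 2 TPM, and the 4 groups overlapped. Between libraries of the same number, Krt8 was higher with YN1 than in NPEM in 3 of 3 pairs and higher in DMEM than in NPEM in 3 of 3 pairs, but higher with CHIR than in NPEM in only 2 of 3, with a mean difference of 0.15 on the log2(TPM + 1) scale. The log2 difference (LogFC, on the log2(TPM + 1) scale, which understates differences of low genes) was 0.39 with YN1 against NPEM (SE 1.82, or 0.23 with the replicate block) and 0.53 in DMEM against NPEM (SE 1.80, or 0.20 with the block).

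Krt18, the type I partner of Krt8, had 0.851, 2.24 and 65.3 TPM with YN1, 0.700, 1.16 and 68.1 TPM with CHIR, 1.28, 2.27 and 63.3 TPM in DMEM and 0.137, 1.04 and 37.8 TPM in NPEM. Its NPEM library was the lowest of the 4 groups at every replicate number, although the groups overlapped. Krt18 exceeded NPEM by a LogFC of 0.71 with YN1 (SE 1.72, or 0.20 with the block), 0.50 with CHIR (SE 1.79, or 0.24 with the block) and 0.80 in DMEM (SE 1.69, or 0.18 with the block). Most of its spread lay between replicate numbers, which the block takes out. Of the keratin pseudogenes in the files, Krt8-ps had at most 0.264 TPM, and reads shared between the genes and their copies may have been split by the authors' quantification.

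Krt19, a type I keratin of ducts and simple epithelia, had 4.58, 0.477 and 16.1 TPM with YN1, 3.27, 3.90 and 46.8 TPM with CHIR, 4.20, 0.519 and 15.4 TPM in DMEM and 0, 0.167 and 11.8 TPM in NPEM. Unlike Krt8 and Krt18 it was above 3 TPM in replicate 1 of YN1, CHIR and DMEM. Its level in replicate 2 was above 1 TPM only with CHIR. CHIR libraries exceeded the NPEM library of the same number by 2.10, 2.07 and 1.90 on the log2(TPM + 1) scale, a LogFC of 2.02 (SE 1.26, or 0.20 with the block). In YN1 and DMEM libraries the same differences from NPEM were uneven, 2.48, 0.34 and 0.42 with YN1 and 2.38, 0.38 and 0.36 in DMEM. Krt19 lies on chromosome 11 at 100140810 to 100145926.

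Epcam, a surface adhesion molecule of epithelia, had 0.945, 2.38 and 32.5 TPM with YN1, 1.36, 4.59 and 26.5 TPM with CHIR, 2.17, 3.16 and 31.7 TPM in DMEM and 3.84, 3.95 and 30.8 TPM in NPEM. The 4 replicate 3 libraries averaged 30.4 ± 2.69 TPM (SD, n = 4), the narrowest relative spread of the 5 genes that share the pattern, and the other 8 averaged 2.80 ± 1.30 TPM (SD, n = 8). In replicate 1, the order of the groups was YN1 below CHIR, CHIR below DMEM and DMEM below NPEM, with no such order in replicate 3. The LogFC against NPEM was -0.60 with YN1 (SE 1.19), -0.36 with CHIR (SE 1.06) and -0.27 in DMEM (SE 1.08).

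Cdh1 (E-cadherin), the cadherin of mature epithelia, had 0.0603, 0.335 and 10.8 TPM with YN1, 0.0375, 0.179 and 7.26 TPM with CHIR, 0.0402, 0.278 and 8.60 TPM in DMEM and 0.0918, 0.185 and 15.4 TPM in NPEM. It reached 1 TPM in 4 of 12 libraries, all of them replicate 3, and so did not enter any of the 6 tests, which asked for 1 TPM in at least 3 of the 6 libraries compared. Within replicate 3, NPEM was the highest of the 4 groups, the reverse of Krt8 and Krt18. Cdh1 lies on chromosome 8 at 106603350 to 106670247, 46438 bases from its neighbour Cdh3.

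Cdh16, the kidney-specific cadherin of tubule epithelium, had 0, 0.907 and 27.9 TPM with YN1, 0, 0.455 and 17.8 TPM with CHIR, 0, 1.70 and 24.3 TPM in DMEM and 0.103, 2.12 and 67.2 TPM in NPEM. The replicate 3 library of NPEM held the most, and the NPEM library was the highest of the 4 groups at every number. Cdh16 is listed at 0 in replicate 1 of YN1, CHIR and DMEM, and no fold is given there. In the other 2 pairs, levels relative to NPEM were 0.429 and 0.415 with YN1, 0.215 and 0.265 with CHIR and 0.805 and 0.362 in DMEM. The LogFC against NPEM was -0.70 with YN1 (SE 1.78, or 0.28 with the block), -1.03 with CHIR (SE 1.70, or 0.37 with the block) and -0.59 in DMEM (SE 1.74, or 0.32 with the block).

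Cdh3 (P-cadherin), found in placenta and in several developing epithelia, had 36.1, 8.03 and 42.5 TPM with YN1, 14.9, 4.39 and 24.9 TPM with CHIR, 26.7, 7.86 and 39.3 TPM in DMEM and 4.85, 2.91 and 9.99 TPM in NPEM. Here replicate 2, not replicate 3, stood apart, as the lowest library of each group. At each number the NPEM library was the lowest of the 4 groups and the YN1 library the highest. Cdh3 was 7.44-, 2.76- and 4.26-fold higher with YN1 than in NPEM, 3.07-, 1.51- and 2.49-fold higher with CHIR, and 5.50-, 2.70- and 3.93-fold higher in DMEM. The LogFC was 1.95 with YN1 (SE 0.66, or 0.31 with the block), 1.05 with CHIR (SE 0.63, or 0.25 with the block) and 1.77 in DMEM (SE 0.63, or 0.24 with the block). Against DMEM, Cdh3 was 0.558, 0.558 and 0.634 times as high with CHIR, a LogFC of -0.72 (SE 0.74, or 0.13 with the block), and 1.35, 1.02 and 1.08 times as high with YN1. The groups overlapped in all 6 comparisons. Without the replicate 3 libraries the LogFC against NPEM was 1.94 with YN1, 0.95 with CHIR and 1.71 in DMEM. Cdh3 lies on chromosome 8 at 106510852 to 106556911.

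Cdh6 (K-cadherin), a cadherin of the early nephron and proximal tubule, had 8.49, 8.30 and 31.3 TPM with YN1, 13.6, 18.6 and 19.7 TPM with CHIR, 9.58, 9.10 and 27.4 TPM in DMEM and 6.35, 4.55 and 9.16 TPM in NPEM. All 3 CHIR libraries were above all 3 NPEM libraries, whereas YN1 and DMEM overlapped with NPEM. CHIR replicates lay within 13.6 to 19.7 TPM, while in YN1 and DMEM the replicate 3 library stood well above the others of its group. Cdh6 was 2.14-, 4.08- and 2.15-fold higher with CHIR than in NPEM, a LogFC of 1.28 (SE 0.29). With YN1 the LogFC against NPEM was 0.93 (SE 0.52) and in DMEM 0.96 (SE 0.45). Without the replicate 3 libraries the LogFC against NPEM was 0.56 with YN1, 1.40 with CHIR and 0.70 in DMEM. Cdh6 lies on chromosome 15 at 13028699 to 13176407.

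Cdh4 (R-cadherin), known from developing brain, muscle and kidney, had 0.521, 1.63 and 1.63 TPM with YN1, 1.21, 3.41 and 2.32 TPM with CHIR, 0.620, 1.52 and 1.80 TPM in DMEM and 5.33, 4.87 and 3.20 TPM in NPEM. All 3 NPEM libraries were above all libraries of YN1 and DMEM, and the highest CHIR library overlapped the lowest NPEM library. Cdh4 was lower than in NPEM in 3 of 3 pairs with each treatment, by a LogFC of -1.30 with YN1 (SE 0.33), -0.76 with CHIR (SE 0.34) and -1.25 in DMEM (SE 0.32). It was higher with CHIR than in DMEM in 3 of 3 pairs, by a LogFC of 0.50 (SE 0.36). Without the replicate 3 libraries the LogFC against NPEM was -1.61 with YN1, -0.97 with CHIR and -1.59 in DMEM. Cdh4 lies on chromosome 2 at 179442423 to 179899377.

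Cdh11 (OB-cadherin), best known as a cadherin of mesenchyme and not of epithelium, was by far the most abundant of the 10 genes. It had 458, 637 and 534 TPM with YN1, 373, 349.8 and 382 TPM with CHIR, 499.8, 659 and 502 TPM in DMEM and 618, 456 and 279.7 TPM in NPEM. CHIR libraries were closely grouped and lay below all 3 DMEM libraries and all 3 YN1 libraries, and the NPEM libraries spread across the range of the other groups. Cdh11 averaged 368 ± 16.6 TPM with CHIR and 554 ± 91.3 TPM in DMEM (SD, n = 3 each), a LogFC of -0.58 (SE 0.15). It averaged 543 ± 89.9 TPM with YN1, a LogFC of 0.55 over CHIR (SE 0.16). Against NPEM, at 451 ± 169 TPM, the LogFC was 0.33 with YN1 (SE 0.29), -0.22 with CHIR (SE 0.27) and 0.36 in DMEM (SE 0.29), and no group had all 3 pairs in the same direction. Cdh11 lies on chromosome 8 at 102632095 to 102785493, and Cdh16 on the same chromosome at 104601915 to 104624396.

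Over the 12 libraries, TPM put Cdh11 first at 479 ± 120.2 TPM (SD, n = 12), with Krt18 next at 20.4 ± 29.2 TPM. Cdh3 averaged 18.5 ± 14.7 TPM, Krt8 17.3 ± 25.4, Cdh6 13.8 ± 8.58, Epcam 11.99 ± 13.7, Cdh16 11.9 ± 20.3 and Krt19 8.93 ± 13.3 TPM. Cdh1 averaged 3.60 ± 5.43 TPM and Cdh4 2.34 ± 1.56 TPM. From Krt18 to Cdh4, neighbours in this order did not differ beyond their spread, and the libraries of Cdh11 did not overlap with those of any other of the 10 genes. Because the replicate numbers differ so much, the order within the 8 replicate 1 and 2 libraries was another: there Krt18 averaged 1.21 ± 0.734, Krt8 0.573 ± 0.628, Cdh16 0.661 ± 0.839 and Cdh1 0.151 ± 0.113 TPM, all below Cdh4 at 2.39 ± 1.90 TPM (SD, n = 8).

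**Figure D3:**
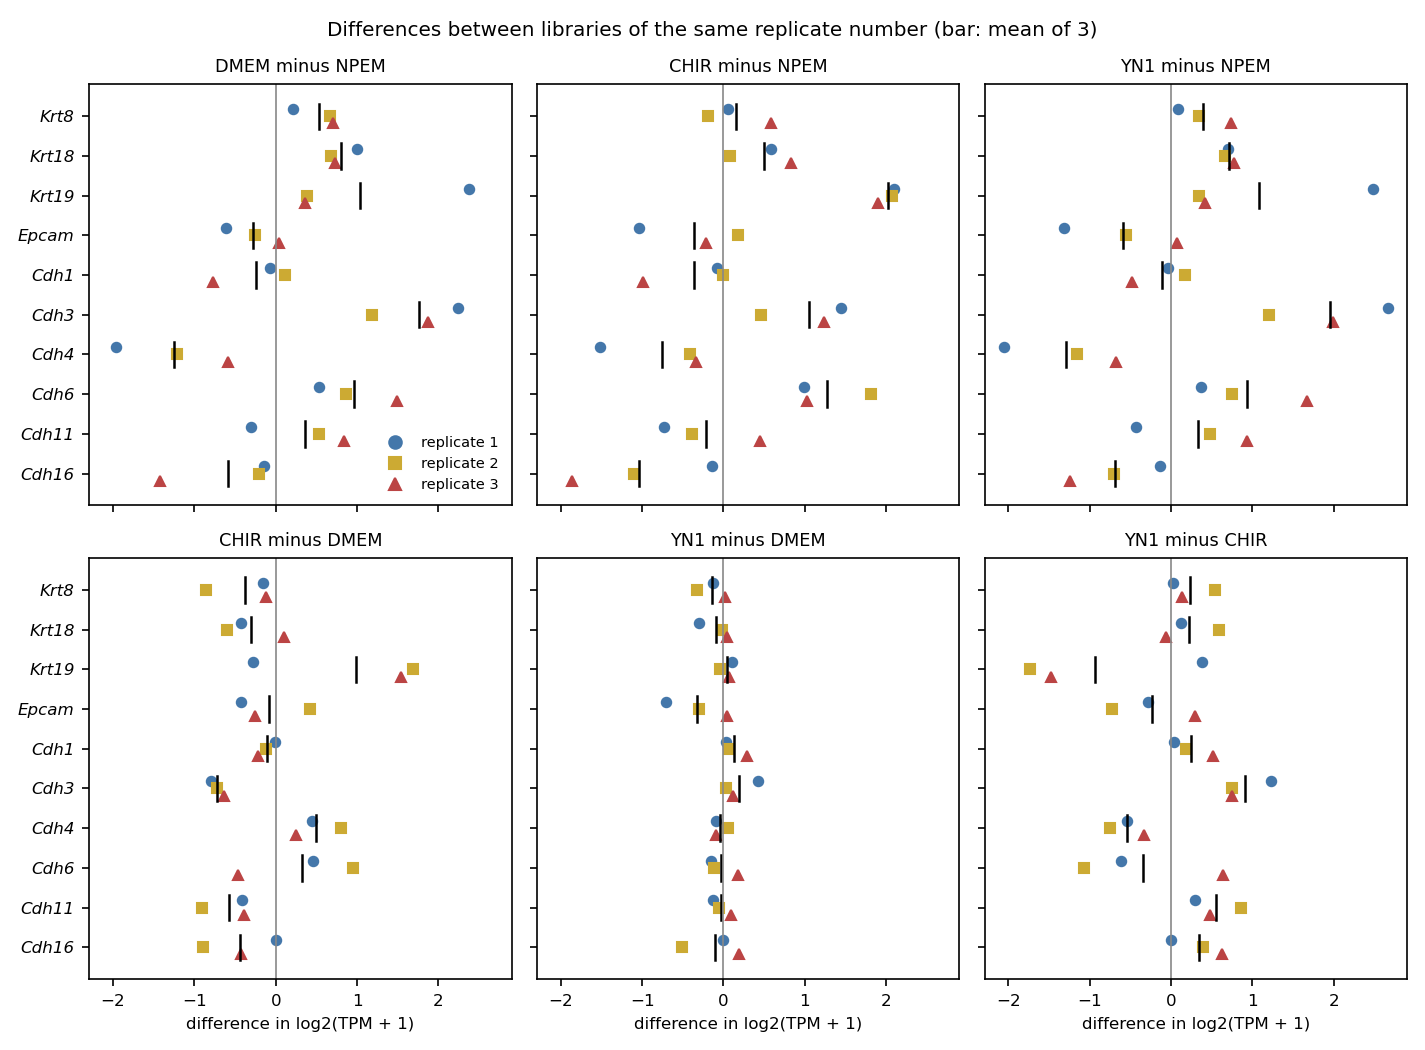
Differences in log2(TPM + 1) between libraries of the same replicate number for the 10 genes in the 6 comparisons, with circles, squares and triangles for replicates 1, 2 and 3 and a bar at their mean. Cdh3 lies right of 0 and Cdh4 left of 0 for all replicates in all 3 comparisons with NPEM, and the YN1 minus DMEM panel holds differences between -0.71 and 0.42.

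Each pair of groups was compared with limma on log2(TPM + 1), over the genes that reached 1 TPM in 3 or more of its 6 libraries, and a gene was called at an adjusted p (Benjamini-Hochberg) under 0.05. Cdh1 was under this filter in all 6 comparisons, Krt8 in CHIR against NPEM and Cdh16 in YN1 against CHIR, and the other 7 genes were tested in each. The values of the 10 genes were known when they were chosen, so nothing is read from these calls. The 3 comparisons with NPEM share the NPEM libraries, as the 3 with each other group share that group.

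For YN1 against NPEM, limma called 0 of 9 genes tested and 33 of 14323 genes in all (0.23%). At an unadjusted p under 0.05 there were 2 of the 9, beside 1362 higher and 678 lower genes in all. With the replicate block 0 of 9 were called, and 108 genes in all (0.754%). At an unadjusted p under 0.05 the block gave 4 of the 9, beside 2236 higher and 1207 lower genes in all. Cdh4 was the single gene of the 10 whose YN1 libraries were all below the NPEM libraries, as were 6.99% of the genes tested, and none of the 10 were all above.

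For CHIR against NPEM, limma called 0 of 8 genes tested and 53 of 14035 genes in all (0.378%). At an unadjusted p under 0.05 there was 1 of the 8, beside 617 higher and 1060 lower genes in all. With the replicate block Krt19 was called higher, 1 of 8, among 233 genes in all (1.66%), and without the replicate 3 libraries 0 were called, Krt19 then being under the filter on low values. Cdh6 was the gene whose CHIR libraries were all above the NPEM libraries, as were 5.66% of the genes tested.

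For DMEM against NPEM, limma called 0 of 9 genes tested and 64 of 14343 genes in all (0.446%). At an unadjusted p under 0.05 there were 2 of the 9, beside 1542 higher and 688 lower genes in all. With the replicate block Cdh3 was called higher, 1 of 9, among 933 genes in all (6.5%). With the block this call was also made without the replicate 3 libraries, among 431 genes in all. Cdh4 alone had all its DMEM libraries below the NPEM libraries, as had 7.02% of the genes tested.

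For CHIR against DMEM, limma called 0 of 9 genes tested and 36 of 14313 genes in all (0.252%). At an unadjusted p under 0.05 there was 1 of the 9, beside 596 higher and 2158 lower genes in all. With the replicate block Cdh3 and Cdh11 were called lower, 2 of 9, among 1832 genes in all (12.8%). Without the replicate 3 libraries 0 genes in all were called, with or without the block, so nothing is read from the loss of these calls. The LogFC was then -0.76 for Cdh3 and -0.67 for Cdh11. Cdh11 was the gene with all CHIR libraries below the DMEM libraries, as had 20.2% of the genes tested.

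For YN1 against DMEM, limma called 0 of 9 genes tested and 0 of 14500 genes in all (0%). The replicate block gave the same counts of calls (0%). At an unadjusted p under 0.05, without the block, there were 0 of the 9, beside 46 higher and 29 lower genes in all. The LogFC of the 9 genes ran between -0.32 for Epcam and 0.19 for Cdh3. For YN1 against CHIR, limma called 0 of 8 genes tested and 1 of 14269 genes in all (0.00701%), against 0 of 8 among 223 genes with the block (1.56%). At an unadjusted p under 0.05, without the block, there was 1 of the 8, beside 1758 higher and 458 lower genes in all. Cdh11 was the gene with all YN1 libraries above the CHIR libraries, as had 18.3% of the genes tested.

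Krt19 and Cdh3 were the genes with the widest gap between YN1 and CHIR. Krt19 had a LogFC of -0.94 with YN1 against CHIR (SE 1.19, or 0.45 with the block), higher in 1 pair and lower in 2. Cdh3 had a LogFC of 0.91 (SE 0.78, or 0.16 with the block), higher in 3 of 3 pairs.

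The median LogFC of the genes tested among the 10 was 0.39 for YN1, 0.14 for CHIR and 0.53 for DMEM against NPEM, beside medians of all genes tested of 0.09, -0.06 and 0.09. It was -0.31 for CHIR against DMEM, beside -0.15 for all genes. Quantile normalization moved the median of all genes to 0.00 there, and to 0.00 from 0.16 for YN1 against CHIR, and Epcam then changed sign for CHIR against DMEM, with a LogFC of 0.15.

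Genes of the same structures were examined as lists. Of the 40 genes with replicate 3 libraries 5-fold above the rest, 5 are among the 10 described, 13 belong to these lists and 22 to none of them. Among 16 epithelial regulators and surface genes at 1 TPM or more in 3 libraries, 7 showed it, including Esrp1, a splicing regulator of epithelia, and the protease inhibitor Spint1. The list summed to 97.9 to 157 TPM in replicate 3 libraries, 12.04 to 20.2 TPM in replicate 1 libraries and 13.7 to 46.7 TPM in replicate 2 libraries. Of 19 tight junction and polarity genes 4 showed it, the claudins Cldn3, Cldn4 and Cldn6 and the polarity gene Crb3. Of 7 other keratins Krt7 alone showed it, with 15.3 to 17.6 TPM in replicate 3 libraries, 0.0754 to 0.378 TPM in replicate 1 libraries and 0.230 to 0.375 TPM in replicate 2 libraries. The list genes with this gap, except St14 and Cldn4, reached 1 TPM only in replicate 3 libraries, so nothing is read from these counts.

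The gap was found in 0 of 7 desmosome genes, 0 of 11 catenins and adherens junction genes, 0 of 4 other cadherins, 0 of 10 other intermediate filament genes and 0 of 10 mesenchymal regulators. Jup (plakoglobin), the catenin shared by desmosomes and adherens junctions, had 91.4 to 104 TPM in replicate 3 libraries, 42.6 to 65.0 TPM in replicate 1 libraries and 56.0 to 75.4 TPM in replicate 2 libraries, higher in replicate 3 but by less than 5-fold. By any margin, the 4 replicate 3 libraries lay above the other 8 in 299 of all 15680 genes (1.91%). This held for 13 of 16 epithelial regulators and surface genes and 8 of 19 tight junction and polarity genes. All of these except Sfn, Cldn7, St14, Rab25 and Cldn4 reached 1 TPM only in replicate 3 libraries. Most therefore passed the minimum through those libraries, and nothing is read from these counts. Replicate 3 libraries also lay above the rest for 3 of the 7 desmosome genes, 1 of 11 catenin genes (Jup) and 1 of 10 mesenchymal regulators (Fn1). The count was 1 of 10 other intermediate filament genes, 1 of 7 other keratins (Krt7) and 0 of 4 other cadherins. The desmosome genes were the cadherin Dsg2, with at least 1.06 TPM in replicate 3 libraries and at most 0.290 TPM in the rest, the plakophilin Pkp3, with at least 1.76 TPM and at most 0.731 TPM, and desmoplakin (Dsp), with at least 2.60 TPM and at most 1.86 TPM. The filament gene was Des (desmin of muscle), with at least 213 TPM in replicate 3 libraries and at most 89.1 TPM in the rest. Cdh2 (N-cadherin), the most abundant of the other cadherins, had 36.2 to 88.7 TPM in replicate 3 libraries, 25.6 to 82.9 TPM in replicate 1 libraries and 90.2 to 175 TPM in replicate 2 libraries, so its high libraries were of replicate 2. Vim (vimentin), the intermediate filament protein of mesenchyme, had 1201 to 1717 TPM in replicate 3 libraries, 1127 to 1737 TPM in replicate 1 libraries and 727 to 896 TPM in replicate 2 libraries.

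**Figure D4:**
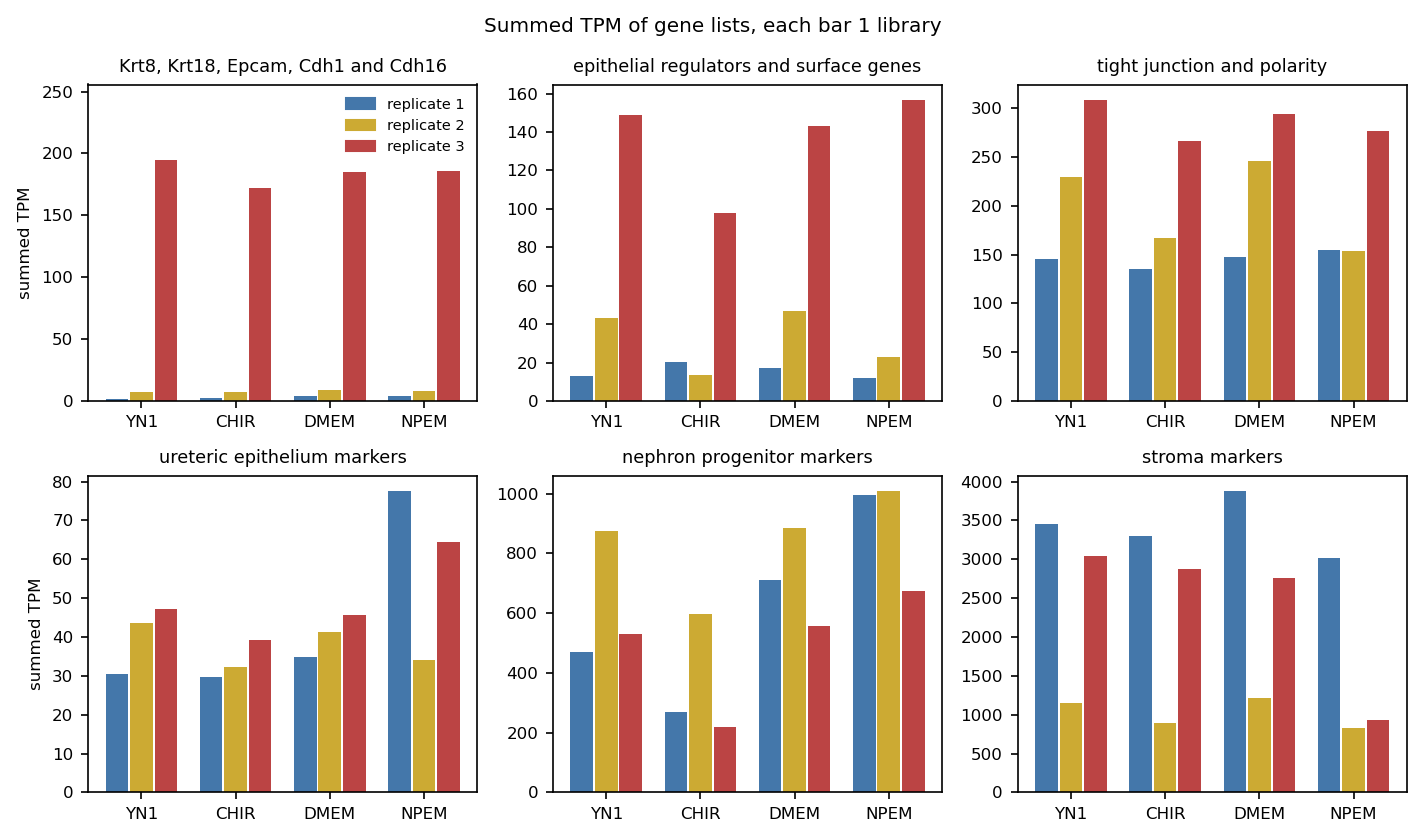
Summed TPM of 6 gene lists, with a bar for each library, grouped by treatment and coloured by replicate number. The sum of Krt8, Krt18, Epcam, Cdh1 and Cdh16 lies between 172 and 195 TPM in replicate 3 and at 9.17 TPM or less elsewhere, while ureteric epithelium and nephron progenitor markers do not separate by replicate number.

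Markers of other cells were set beside the pattern. Of 10 ureteric epithelium markers 5 reached 1 TPM in 3 libraries and 0 showed the 5-fold gap. The list summed to 39.2 to 64.5 TPM in replicate 3 libraries, 29.6 to 77.6 TPM in replicate 1 libraries and 32.2 to 43.7 TPM in replicate 2 libraries, so the ranges overlapped. Most of the sum came from Hoxb7, with 25.7 to 29.0 TPM in replicate 3 libraries and 14.3 to 27.1 TPM in the other 8, and Wnt11, with 4.83 to 14.8 TPM and 5.25 to 52.7 TPM. Sox9 had 3.72 to 10.5 TPM in replicate 3 libraries and 0.372 to 9.27 TPM in the other 8, and Gata3 had 0.498 to 4.15 TPM and 0.557 to 2.33 TPM. The ranges of these 4 genes overlapped. Ret had at most 0.726 TPM in replicate 3 libraries and at most 1.02 TPM in the other 8, and Calb1 and Aqp2 had at most 0.247 TPM in all 12. Wnt9b, a WNT ligand of the ureteric bud, is listed at 0 in all 8 replicate 1 and 2 libraries and had 0.0174 to 0.200 TPM in the 4 replicate 3 libraries. Tfcp2l1, a transcription factor of the collecting duct, had 0.601 to 6.97 TPM in replicate 3 libraries and at most 0.230 TPM in the other 8, apart but by less than 5-fold. Aqp3, a water channel of the collecting duct, had 0.0906 to 2.58 TPM in replicate 3 libraries and at most 0.150 TPM in the other 8. Endothelium, blood and immune, stroma and nephron progenitor markers held 0 such genes. The part of other cells in the pattern was not tested.

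In the treatment comparisons without the block, limma called few genes of the adhesion and filament lists. Over 6 comparisons it called 0 of 16 other cadherins, of which 3 were tested, and 0 of 13 other keratins, of which 2 to 4 were tested. It also called 0 of 14 catenins and adherens junction genes (11 tested) and 0 of 11 desmosome genes (3 to 4 tested). Calls were likewise 0 of 20 tight junction and polarity genes (10 to 13 tested) and 0 of 19 epithelial regulators (4 to 6 tested). Of 10 mesenchymal regulators, all tested, 0 were called. Genes under the filter on low values give no result. At an unadjusted p under 0.05 each of these lists held at most 4 genes in a comparison. The 4 were catenins and adherens junction genes for YN1 against NPEM, where 1362 genes in all were higher and 678 lower at that level. Among 11 other intermediate filament genes, Nes (nestin), a filament protein of progenitor cells, rose with CHIR against NPEM (LogFC = 2.43, SE 0.32, adjusted p = 0.0406, limma). In the same comparison Wnt4, a WNT ligand that starts epithelium formation in the nephron, rose (LogFC = 5.84, SE 0.51, adjusted p = 0.0123), and the WNT antagonist Dkk1 fell (LogFC = -5.54, SE 0.46, adjusted p = 0.0110).

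With the replicate block, which called 1.66% of all genes for CHIR against NPEM, 12.8% for CHIR against DMEM and 6.5% for DMEM against NPEM, more of these genes were called. Cdh2 fell with CHIR against NPEM (LogFC = -1.29, SE 0.16, adjusted p = 0.0390, limma with the block) and against DMEM (LogFC = -0.82, SE 0.09, adjusted p = 0.0215), and Cdh13, a cadherin without a transmembrane part, fell in DMEM against NPEM (LogFC = -1.003, SE 0.18, adjusted p = 0.0462). The keratins Krt13 (LogFC = 3.11, SE 0.36, adjusted p = 0.0357) and Krt23 (LogFC = 2.25, SE 0.29, adjusted p = 0.0415), both of stratified or glandular epithelia, rose with CHIR against NPEM. Krt23 also rose with CHIR against DMEM (LogFC = 1.92, SE 0.24, adjusted p = 0.0235). Pkp2 (plakophilin 2), a desmosome plaque protein, rose with CHIR (LogFC = 1.86, SE 0.21, adjusted p = 0.0345) and in DMEM (LogFC = 1.31, SE 0.21, adjusted p = 0.0400) against NPEM. For DMEM against NPEM, the block also called 1 of 11 catenin genes, Nectin2, higher (LogFC = 0.66) and 1 of 10 mesenchymal regulators, Snai1, lower (LogFC = -0.82). For CHIR against DMEM it called Ctnnb1 (beta-catenin, LogFC = -0.35), Cldn7 (LogFC = -1.10) and the neurofilament gene Nefm (LogFC = -1.66) lower and Nes higher (LogFC = 1.27). For YN1 against CHIR, where it called 1.56% of all genes, Cdh2 was higher (LogFC = 0.82) and Krt23 lower (LogFC = -1.85). None of the calls in this paragraph was made without the block.

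For the 8 of the 10 genes with a mean of at least 5 TPM, the genes with the most similar course over the 12 libraries were found among 10019 genes, by the root mean square of the differences in centred log2(TPM + 1), where 0 is an identical course. The measure is a description, and the libraries share replicate numbers and treatments. Krt18 and Krt8 were most like Cldn4, claudin 4 of tight junctions (0.289 and 0.312), then Cldn6 (0.452 and 0.551) and Lcn2, a secreted lipocalin (0.494 and 0.613). Cdh16 was most like Wfdc2 (0.484), Cldn6 (0.523) and Dcdc2a (0.551), and Epcam most like Dcdc2a (0.430), Lad1 (0.474) and Cldn7 (0.515). All of these nearest genes except Cldn7 were among the 40 with the 5-fold gap. Krt8, Krt18, Cdh16 and Epcam have that gap themselves, so genes chosen as most like them share it largely by selection. Nothing is read from this overlap.

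The remaining 4 genes had other neighbours. Krt19 was most like Hmga1b (0.820) and Cspg4 (0.858), looser matches than those of the other 7 genes. Cdh3 was most like Serinc2 (0.483), Myof (0.492) and Capg (0.532), which shared its low replicate 2 libraries. Cdh6 was most like Phgdh, an enzyme of serine synthesis (0.365), Lbh (0.431) and Hoxb2 (0.433). Cdh11 was most like Kmt2e (0.128), Stxbp4 (0.132) and Btbd7 (0.133), within a course that itself varied little, by 0.362 around its mean.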

How the data were processed

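Poly-A RNA of 12 NPC libraries was sequenced without strand information, so reads of a gene and of an overlapping antisense gene cannot be told apart. The authors used STAR with the builds mm9 and mm10, estimated abundance with RSEM and Kallisto, collapsed transcripts to genes, and deposited TPM per library with the replicates not pooled; versions and the annotation release are not given in the sources used here. The deposited tables also hold the authors' own Sleuth statistics, and another pair of tables holds their log fold changes and p-values, and neither was used. TPM was read as deposited, with no further scaling, and the 6 columns repeated between tables were identical. Depth is unknown.

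The 10 genes and the 14 gene lists (169 of 172 entries found in the files) were chosen with earlier results of these data known. The rule for named genes was every one of the 10 genes, up to 5 genes of each list (those called in any comparison, then the highest), and the 3 most similar genes over the libraries, of which some are not reported here. Other list genes named (Esrp1, Snai1, Zeb1, the claudins, Crb3, Dsg2, Nectin2, Nefm, Ret, Wnt9b, Calb1, Aqp2 and Aqp3) were chosen after their values were seen. Each of 6 comparisons set 3 libraries against 3 and kept genes reaching 1 TPM in 3 or more of the 6. The two-sided test was limma 3.58.1 (R 4.3.3) on log2(TPM + 1), with moderated variances that follow the mean level, and p-values were adjusted over every gene kept (Benjamini-Hochberg, threshold 0.05). The test was tried on simulated data. The study names 3 independent preparations but does not tie a number to each.

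The pairing of replicate numbers was checked on 14084 genes. Deviations from the group means had correlations of 0.369 to 0.743 in the 18 pairs with the same number and of -0.529 to -0.0652 in the 36 pairs with different numbers. Deviations cancel within a group, so positive values for the same number force lower ones for different numbers, which add no separate evidence. Because of the same-number values, the number was fitted as a block beside the fit without it. Other alternatives were a joint fit of all 4 groups (also with the block), a pseudocount of 0.1, a stricter filter (mean of 5 TPM) or none, quantile normalization, variances without the mean trend, each library left out, and, added after seeing the data, leaving out the replicate 3 libraries and limits of 2-fold and 10-fold. Gene positions and promoters are from RefSeq (GRCm38.p6). Tables were read with the data.table package (version 1.17.8), Python 3.11.15, pandas 2.3.3 and numpy 2.4.6, and figures drawn with matplotlib 3.10.9.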

Additional observations from a re-analysis of the deposited data

Results flagged for a closer look

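For 2 of the 10 genes, all libraries moved one way with CHIR and the other way with YN1, each against the DMEM library of the same replicate number. Opposite directions of this kind were found in 859 of 15680 genes (5.48%), 614 of them lower with CHIR and higher with YN1, and nothing is read from 2 of 10. Cdh3 differed from DMEM by a mean of 0.19 on the log2(TPM + 1) scale with YN1 (3 of 3 pairs higher) and by -0.72 with CHIR (3 of 3 pairs lower). The YN1 against CHIR comparison, which is the difference of these effects, gave a LogFC of 0.91, not called by limma with or without the replicate block in that pair of groups and called with all 4 groups in one fit with the block. That last fit called 3002 of 14269 genes in all. Cdh1 differed by a mean of 0.13 with YN1 (3 of 3 pairs higher) and by -0.11 with CHIR (3 of 3 pairs lower). Its difference was not tested, because Cdh1 did not pass the filter on low values. Of its 3 pairs 2 lie below 1 TPM, and its replicate 1 differences were 0.028 with YN1 and -0.0037 with CHIR. The DMEM libraries are shared by both effects of each gene.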

How the results depend on the processing

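Without the block, 0 of the 10 genes were called in each of the 6 comparisons, and this held under each alternative without the block. With the replicate block the number of the 10 genes called was 1 for DMEM against NPEM (Cdh3), 1 for CHIR against NPEM (Krt19) and 2 for CHIR against DMEM (Cdh3 and Cdh11), and 0 for the other 3 comparisons. With all 4 groups in one fit with the replicate block it was 3 for YN1 against NPEM (Krt18, Cdh3 and Cdh4), 3 for CHIR against NPEM (Krt19, Cdh3 and Cdh6), 3 for DMEM against NPEM (Krt18, Cdh3 and Cdh4) and 1 for YN1 against CHIR (Cdh3), and 0 for CHIR against DMEM. In the same order, that fit called 2374 of 14323, 1506 of 14035, 2025 of 14343, 3002 of 14269 and 3503 of 14313 genes in all, so nothing is read from these counts. Without the replicate 3 libraries but with the block, 1 of the 10 genes was called for DMEM against NPEM (Cdh3), among 431 genes in all. At a limit of 10-fold instead of 5-fold, 3 of the 10 genes stood apart in replicate 3. Leaving out each library in turn gave 0 to 0 of the 10 genes. Of 760 LogFC values of the 10 genes under the alternatives, 608 moved by less than 1 SD of the differences between libraries of the same number and 152 by more, most of them where a library was left out of one group.

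For YN1 against DMEM, counts over all genes were 0 in each setting except variances without the mean trend, with 1. In the other comparisons they moved by more than 1.5 times under many of the alternatives, but not under all. For YN1 against NPEM they were 33, 1 to 28 with a library left out, 1 with no filter, 21 with a minimum mean of 5 TPM, 284 with all 4 groups, 108 with the block and 2374 with both. For CHIR against NPEM they were 53, 2 to 192, 1, 43, 187, 233 and 1506, for DMEM against NPEM 64, 2 to 29, 5, 36, 237, 933 and 2025, for CHIR against DMEM 36, 0 to 6, 0, 1, 437, 1832 and 3503, and for YN1 against CHIR 1, 0 to 2, 0, 1, 242, 223 and 3002, in the same order. Quantile normalization gave 2 for CHIR against DMEM (1 higher and 1 lower, against 5 and 31 without it), and it moved the split for YN1 against NPEM to 20 higher and 16 lower (22 and 11 without it) and for DMEM against NPEM to 49 and 32 (49 and 15 without it). Without the replicate 3 libraries 0 genes were called in each comparison, and with the block as well 29 for YN1 against NPEM, 2 for CHIR against NPEM, 431 for DMEM against NPEM, 0 for CHIR against DMEM and 182 for YN1 against CHIR. The cause was not tested. TPM keeps no depth, and with 3 libraries a group the spread between replicate numbers limits all 5 genes that follow replicate 3.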
